A study of Homo sapiens with 12 samples.

Results

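The genes described here are the histone genes, which encode the proteins that DNA is wound around in chromatin. Members were the protein-coding genes whose GENCODE v29 symbol, found by Ensembl identifier, begins with HIST1H, HIST2H, HIST3H or HIST4H (called HIST genes below) or with H1F, H2AF or H3F (called variant genes), and that had at least 10 counts summed over the 12 samples. GENCODE v29 holds 87 protein-coding genes with such symbols, 71 HIST genes and 16 variant genes. Of these, 42 were in the rows analysed here and 35 reached 10 counts, which made 28 HIST genes and 7 variant genes among 20595 genes in all. The 7 that fell short were H1FNT, H1FOO and H2AFB3 at 0 counts, HIST1H2AE at 1, HIST1H3J at 4, H2AFY2 at 5 and HIST1H2BH at 7, and the members with the fewest counts were HIST1H2BG at 10 and HIST1H3G at 12. No linker histone (H1) gene is among the members. The other 45 genes were not analysed here, and each of them has 1 annotated transcript, as do 20 of the 42.

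RNA was sequenced from A549 and H1792, established human lung adenocarcinoma cell lines that the study describes as MDM2-amplified. A549 is treated here as p53 wild type (WT) and H1792 as p53 mutant, so p53 status is represented by 1 cell line each and cannot be told apart from other differences between the lines. The 4 groups, with 3 samples each, were A549 with DMSO, A549 with RG7112, H1792 with DMSO and H1792 with RG7112, all after 48 h. RG7112, a nutlin-type compound that keeps MDM2 from binding p53, was given at 1 μM by the labels, whereas the names of the deposited columns carry 0.1 μM.

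The total was 2011916 to 6218825 counts per sample, so 3 counts, used here as the limit that a count of 0 allows, stood for 0.464 to 1.427 CPM, the counts scaled to a common library size. The epithelial keratins KRT8 and KRT18, checked as defining markers of lung adenocarcinoma cells, were present in all 12 samples, KRT8 at 10544 to 15825 CPM in A549 and 579 to 1041 in H1792, and KRT18 at 2148 to 4123 and 240 to 662 CPM. The A549 samples of replicate 3 stood apart from replicates 1 and 2 in both treatments (chi-square per degree of freedom 15.45 to 23.27, against 5.12 and 5.63 between replicates 1 and 2), so results are also given without them where that changed the call of a gene described. The origin of the replicates is not given, so p-values measure the spread between these samples, which may be technical.

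Chromatin is built from the core histones H2A, H2B, H3 and H4. The HIST genes are replication-dependent: their mRNAs are made mainly in S phase, end in a short hairpin (the stem-loop) bound by the stem-loop binding protein SLBP, and normally carry no poly-A tail. The variant genes are transcribed throughout the cell cycle or outside it, are usually spliced and polyadenylated, and supply histones such as H2A.Z and H3.3 that are placed in chromatin independently of DNA replication. The libraries were made from poly-A RNA, so a HIST value counts only those transcripts that were carried through that selection, usually a minor form of these mRNAs. H2AFX is known to give both an mRNA that ends at a hairpin and a longer polyadenylated one.

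The stem-loops are shown first because they are typical of HIST mRNAs, although the classes here were set by gene symbol. A stem-loop was sought in GENCODE v29 transcripts (build GRCh38) within 100 bases after the stop codon, as 6 bases from GG to T, a loop of 4 bases and the 6 bases that pair with the first 6. It was found in 26 of the 28 HIST members, all but HIST1H2AG and HIST1H2BJ, and in 1 of the 7 variant members, H2AFX. Over all 18754 protein-coding genes with a full window of 100 bases, histone genes included, it was found in 46, which is 0.245%. Members were also searched where fewer than 100 bases follow the stop codon, as in HIST1H2BL with 82, so the searches differ. The sequences below belong to genes whose values carry the results, with the 6 paired bases on each side in capitals and 5 bases of flank on each side.
HIST1H2BL: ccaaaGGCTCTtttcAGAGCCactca
HIST2H2AA3: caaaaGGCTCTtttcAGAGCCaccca
HIST1H3E: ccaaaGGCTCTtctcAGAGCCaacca
HIST1H4E: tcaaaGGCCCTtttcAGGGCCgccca
HIST2H4A: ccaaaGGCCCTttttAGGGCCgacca
H2AFX: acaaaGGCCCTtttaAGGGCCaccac
The H2B, H2A and H3 genes shown share the stem GGCTCT, whereas the H4 genes and H2AFX carry GGCCCT.

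Each of these hairpins lies after the coding sequence. The HIST1H2BL hairpin is at chr6:27807484-27807499 on the minus strand, in a single-exon gene at chr6:27807444-27807931. That of HIST2H2AA3 is at chr1:149842223-149842238 on the minus strand, in a single-exon gene at chr1:149842188-149842736. That of HIST1H3E is at chr6:26225596-26225611 on the plus strand and that of HIST1H4E at chr6:26205001-26205016 on the plus strand, both in the large histone cluster of chromosome 6. The HIST2H4A hairpin is at chr1:149833032-149833047 on the plus strand. That of H2AFX is at chr11:119094898-119094913 on the minus strand, in a gene at chr11:119093854-119095467. The annotation goes on past the hairpin by different lengths: in the longest transcript of HIST1H2BL 40 bases follow it, in HIST2H2AA3 35, in HIST1H3E 1862, in HIST1H4E 1022 and in H2AFX 1044.

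Many members encode the same protein as close relatives. Their reads may be hard to tell apart, which was not tested. HIST2H2AA3 and HIST2H2AA4 encode identical proteins from inverted copies on chromosome 1, as do HIST2H3A and HIST2H3C, whose deposited counts were identical in every sample, and HIST2H4A and HIST2H4B. The 6 H4 members encode 1 protein, as do HIST1H2BC, HIST1H2BE, HIST1H2BF and HIST1H2BG, the H3 genes HIST1H3E, HIST1H3G and HIST1H3H, and the H2A genes HIST1H2AG and HIST1H2AI. Values of such single copies are uncertain, and sums over them are given beside the results that they touch. HIST2H4A also overlaps HIST2H3C on the other strand, and HIST2H4B overlaps HIST2H3A in the same way. Other annotated genes on the opposite strand overlap H2AFZ, H2AFY, H3F3A, H3F3B, HIST1H2BD, HIST1H2BE, HIST1H2BN and HIST2H2BF. Genes on the same strand overlap H3F3B, HIST1H2BD, HIST1H2BN and HIST2H2BF. The library kit keeps strand, but whether the counting used it is not given in the sources used here.

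The comparison of RG7112 with DMSO within each cell line asked how the histone genes responded to the MDM2 inhibitor. In A549, 4 of the 7 variant genes fell with RG7112 (H2AFX, H2AFZ, H2AFV and H2AFJ) by the edgeR quasi-likelihood test. A gene passed where its p, adjusted by Benjamini-Hochberg over all genes tested, was under 0.05 and its log2 fold change was over 1 in size. None rose by that test, by DESeq2 or limma-trend, or at an unadjusted p under 0.05 (0 genes each). Of all 10739 genes tested, 3.01% were lower and 3.18% higher by the same rule. Of the HIST genes, 21 of 28 had enough counts to be tested, 1 was lower (HIST1H2BL) and 1 was higher (HIST1H3E). The median log2 fold change was −1.02 over the 7 variant genes, all negative, and −0.12 over the 21 HIST genes (10 positive, 11 negative), against −0.01 over all genes tested. In these bulk samples, fewer cells in a given cell cycle phase and less RNA per cell cannot be told apart.

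H2AFX encodes H2A.X, the variant that is phosphorylated around DNA breaks. In A549 it was at 485, 541 and 611 CPM (normalized by TMM) with DMSO and at 101, 101 and 144 with RG7112. The groups did not overlap, and every treated sample was far below every control. The log2 fold change was −2.24 (SE 0.19, adjusted p = 0.00105), or 4.73-fold lower.

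H2AFZ, at chr4:99948086-99950388, encodes the main form of H2A.Z, the variant found at promoters. It was at 146, 130 and 147 CPM with DMSO and at 29.7, 33.8 and 27.9 with RG7112 in A549. The SD was 9.35 and 3 CPM (n = 3), and the groups did not overlap. The log2 fold change was −2.22 (SE 0.16, adjusted p = 0.000661). The changes of H2AFX and H2AFZ passed the test whichever 1 of the 6 A549 samples was left out.

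H2AFV encodes the other H2A.Z protein. In A549 it was at 50.5, 46.6 and 55.4 CPM with DMSO and 27.2, 18.5 and 14.6 with RG7112, and the groups did not overlap. The log2 fold change was −1.32 (SE 0.27, adjusted p = 0.0272). Leaving out any 1 of the 6 samples other than RG7112 replicate 1 raised the adjusted p to between 0.05 and 0.102, and leaving out both samples of replicate 3 gave 0.0574. H2AFJ encodes H2A.J, a variant found only in mammals and known from senescent cells. It was at 291, 307 and 435 CPM with DMSO and 152, 159 and 197 with RG7112, again without overlap. Its log2 fold change of −1.02 (SE 0.20, adjusted p = 0.0224) lay just past the threshold of 1. It no longer passed both thresholds without any 1 sample other than RG7112 replicate 3 (−1.14 to −0.82, adjusted p up to 0.0948), without both samples of replicate 3 (−0.94, adjusted p = 0.00503) or after a correction for GC content (−0.81, adjusted p = 0.121).

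The remaining variant genes in A549 moved less. H3F3A and H3F3B encode the same protein, H3.3, the H3 variant of active genes. H3F3A was at 356, 363 and 411 CPM with DMSO and 238, 280 and 252 with RG7112, a log2 fold change of −0.56 (SE 0.13) whose adjusted p of 0.0407 passed without the fold threshold, by which 4.03% of all genes were lower and 4.35% higher. Leaving out any 1 sample raised that p to 0.0705 to 0.144. H3F3B was at 797, 814 and 920 CPM with DMSO and 748, 755 and 698 with RG7112, and its log2 fold change was −0.20 (SE 0.12, adjusted p = 0.353). The sum of H3F3A and H3F3B had −0.30 (adjusted p = 0.17). H2AFY encodes macroH2A, a variant with an extra globular domain that is abundant on the inactive X chromosome. It was at 553, 544 and 624 CPM with DMSO and 456, 456 and 461 with RG7112, a log2 fold change of −0.33 (SE 0.11, adjusted p = 0.131).

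**Figure D1:**
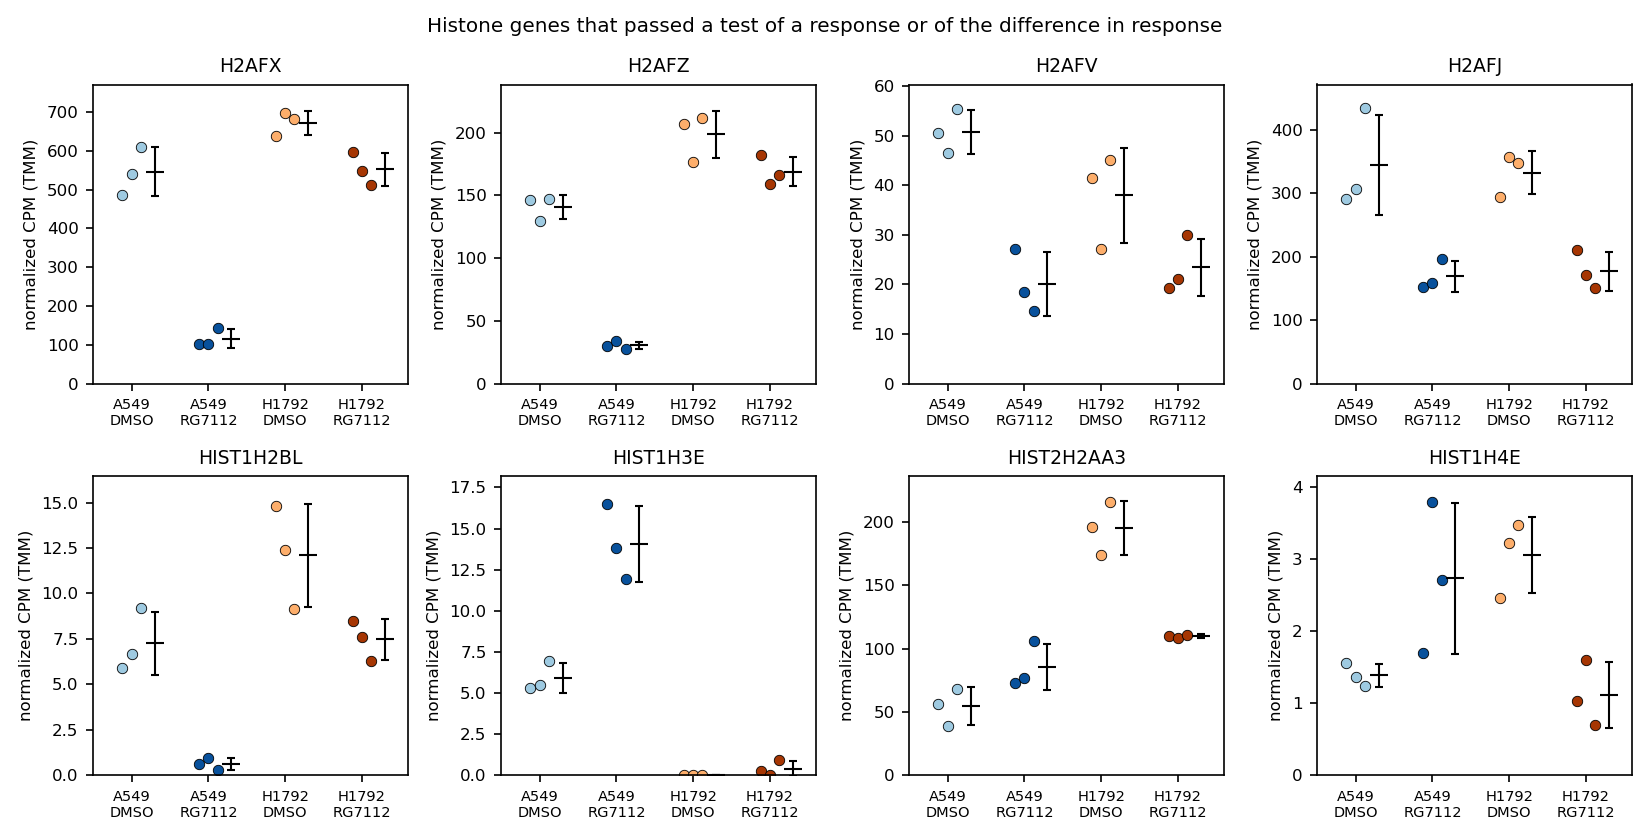
Normalized CPM (TMM over all 12 samples, linear axes from 0) of the 8 histone genes that passed a test of a response or of the difference in response, by group. Each point is 1 sample, and the line and bar beside it are the mean and SD of 3. H2AFX and H2AFZ with RG7112 in A549 (101 to 144 and 27.9 to 33.8 CPM) lie below all other groups, and HIST1H3E is at 0 in H1792 with DMSO.

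Among the HIST genes, HIST1H2BL, an H2B gene, changed most in A549. It was at 5.92, 6.64 and 9.19 CPM with DMSO and at 0.618, 0.951 and 0.271 with RG7112, where the largest count in a sample was 4. All treated samples were near the level of 3 counts, so the size of the change is imprecise. The log2 fold change was −3.58 (SE 0.52, adjusted p = 0.0086), and the call held without any 1 sample (adjusted p 0.0243 to 0.0495).

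HIST1H3E, an H3 gene, moved the other way. It was at 5.29, 5.45 and 6.96 CPM with DMSO and at 16.5, 13.8 and 11.9 with RG7112 in A549, and the groups did not overlap. The log2 fold change was 1.26 (SE 0.29, adjusted p = 0.0442). Leaving out any 1 of the 6 samples ended the call, with log2 fold changes of 1.11 to 1.39 and adjusted p of 0.0546 to 0.164. Summed with HIST1H3G and HIST1H3H, which encode the same protein, it had a log2 fold change of 0.51 (SE 0.24, adjusted p = 0.257) and did not pass.

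The other 19 tested HIST genes did not pass the test in A549. HIST2H2BE, an H2B gene of the chromosome 1 cluster with a long annotated 3′ end, came nearest, at 21.2, 15.5 and 13.9 CPM with DMSO and 43, 41.4 and 26.8 with RG7112 (log2 fold change 1.14, SE 0.28, adjusted p = 0.0526). After the GC correction its adjusted p was 0.0274, with a log2 fold change of 1.17, and without both samples of replicate 3 it passed as well (1.22, adjusted p = 0.0369). The H2B genes HIST1H2BC and HIST1H2BE had log2 fold changes of 1.20 (adjusted p = 0.146) and 1.29 (adjusted p = 0.123). Summed with HIST1H2BF and HIST1H2BG, which encode the same protein, they passed the test at 1.31 (SE 0.30, adjusted p = 0.04). HIST2H2BF had 1.02, HIST1H4H 0.89, HIST2H2AA3 0.65, HIST1H2BJ 0.26, HIST1H2BD 0.08 and HIST1H2AI 0.01 as log2 fold change. Negative values were those of HIST1H2AG (−1.0), HIST2H2AA4 (−0.83), HIST2H4B (−0.58), HIST1H2BN (−0.54), HIST3H2A (−0.52), HIST2H3A and HIST2H3C (−0.50), HIST1H4I (−0.38), HIST1H3H (−0.36) and HIST2H4A (−0.12). Of the other sums, HIST1H2AG with HIST1H2AI had −0.62 (adjusted p = 0.268), HIST2H3A with HIST2H3C −0.51 (adjusted p = 0.558) and the 6 H4 genes −0.07 (adjusted p = 0.842).

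By histone, 6 of 8 tested H2B genes of the HIST class had a positive log2 fold change in A549 (median 0.64), against 2 of 5 H2A genes (median −0.52), 1 of 4 H3 genes (median −0.43) and 1 of 4 H4 genes (median −0.25). By position, the 12 tested genes of the chromosome 6 cluster had a median of 0.05 and the 9 of chromosome 1 a median of −0.50. These are descriptions over few genes that share sequences, with no test. HIST2H3A and HIST2H3C, whose counts were identical in every sample, are both counted in the H3 and chromosome 1 values. Each had −0.50, which is also the chromosome 1 median.

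The HIST genes with the most counts, by CPM not corrected for length, were HIST2H2AA3, HIST2H4A and HIST1H2BD. HIST2H2AA3, an H2A gene, was at 56.1, 38.8 and 68.3 CPM with DMSO and 72.8, 76.6 and 106 with RG7112 in A549 (adjusted p = 0.182). Together with its copy HIST2H2AA4 it was at 64.5, 75.1 and 88.5 CPM with DMSO and 89.4, 88.9 and 114 with RG7112 (log2 fold change 0.36, SE 0.19, adjusted p = 0.3). HIST2H4A, an H4 gene, was at 54.2, 55.2 and 62.6 CPM and then 50.4, 40.9 and 66.4 (adjusted p = 0.788). HIST1H2BD, an H2B gene, was at 41.4, 44.4 and 39 CPM and then 49.3, 43.8 and 39 (adjusted p = 0.837). The treated values of HIST2H4A and HIST1H2BD overlapped the controls.

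**Figure D2:**
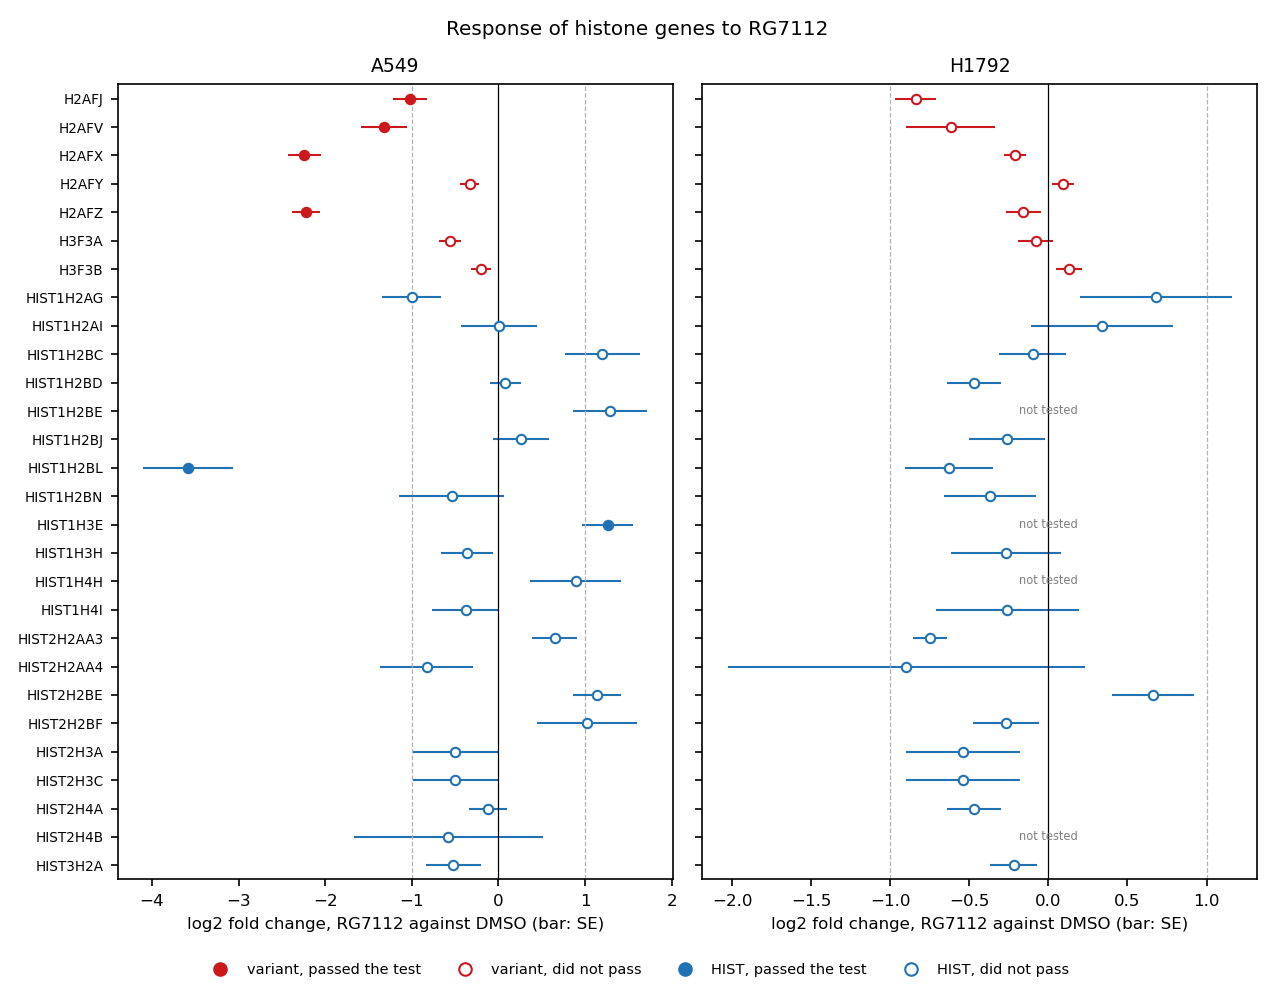
Log2 fold change of RG7112 against DMSO for every histone gene tested in A549 (left) or H1792 (right), with bars of 1 SE and separate horizontal scales. Red marks variant genes and blue HIST genes, filled symbols passed the test, and dashed lines mark a log2 fold change of 1 in either direction. In A549 all 7 variant genes lie below 0 and HIST1H2BL lies at −3.58, and in H1792 no filled symbol appears.

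In H1792, no histone gene passed the same test, out of 17 HIST and 7 variant genes tested, while 10.3% of all 9914 genes tested were higher and 4.34% lower. Without the fold threshold, 1 HIST gene (HIST2H2AA3) and 1 variant gene (H2AFJ) were lower at an adjusted p under 0.05 and none was higher, where 16.5% of all genes were lower and 17.7% higher. At an unadjusted p under 0.05 in the edgeR test, 1 HIST gene was higher, 3 were lower and 2 variant genes were lower, and DESeq2 and limma-trend also called 0 with the fold threshold. The median log2 fold change was −0.27 over the HIST genes, with 14 of 17 negative. It was −0.16 over the variant genes, with 5 of 7 negative, against 0.01 over all genes. The 17 include both HIST2H3A and HIST2H3C, whose counts were identical. After a correction for GC content and length, HIST1H2BC (0.22), HIST1H2BJ (0.02), HIST1H2BL (0.04), HIST2H2AA3 (0.04) and HIST3H2A (0.35) turned positive. The other negative HIST values stayed negative. Scaling matters here: the TMM factors of H1792 differed between treatments, and with library size only the median of all genes moved to 0.27 and the share of calls that were higher from 70.3% to 86.1%.

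H2AFJ in H1792 was at 294, 357 and 348 CPM with DMSO and 210, 171 and 150 with RG7112, without overlap. The log2 fold change was −0.84 (SE 0.13, adjusted p = 0.0061), and −1.36 (adjusted p = 0.00491) after the GC correction. H2AFJ was thus lower with RG7112 in both cell lines, each read against its own controls. HIST2H2AA3 in H1792 was at 196, 174 and 216 CPM with DMSO and 110, 108 and 111 with RG7112, and the treated samples lay close together below all controls. Its log2 fold change was −0.75 (SE 0.11, adjusted p = 0.0049), and −0.77 (adjusted p = 0.00325) with HIST2H2AA4 added. After the GC correction it was −0.34 (adjusted p = 0.0879), and after a correction for GC content and length 0.04 (adjusted p = 0.904). HIST2H2AA3 has a GC content of 61.8%, where the median of all genes tested in H1792 was 48.5%.

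H2AFX, H2AFZ and H2AFV, lower in A549, did not pass the test in H1792, although H2AFV did after the GC correction. H2AFX was at 637, 698 and 681 CPM with DMSO and between 511 and 596 CPM in the 3 samples with RG7112, a log2 fold change of −0.21 (SE 0.07, adjusted p = 0.0663) that became 0.37 (adjusted p = 0.00723) with the GC correction. H2AFZ was at 207, 177 and 212 CPM and then 182, 159 and 166, where the groups overlapped (−0.16, SE 0.11, adjusted p = 0.293). H2AFV was at 41.5, 27.2 and 45.2 CPM and then 19.3, 21.1 and 30 (−0.62, SE 0.28, adjusted p = 0.13), and with the GC correction its log2 fold change was −1.12 (adjusted p = 0.0218). H2AFY was at 651, 660 and 680 CPM and then 711, 662 and 644 (adjusted p = 0.312), H3F3A at 488, 420 and 497 and then 432, 382 and 449 (adjusted p = 0.604), and H3F3B at 846, 779 and 827 and then 913, 829 and 807 (adjusted p = 0.246).

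Of the HIST genes in H1792, HIST1H2BL was at 14.8, 12.4 and 9.14 CPM with DMSO and 8.5, 7.63 and 6.27 with RG7112 (log2 fold change −0.63, SE 0.28, adjusted p = 0.124). HIST2H4A was at 37.6, 45.4 and 44.8 CPM and then 34.5, 27.5 and 25.5 (−0.47, adjusted p = 0.0685), and HIST1H2BD at 34.1, 29.7 and 33.5 and then 25.5, 20.2 and 20.9 (−0.47, adjusted p = 0.0715). Both were lower in every treated sample, yet neither passed. HIST2H2BE was at 13.7, 9.21 and 15.2 CPM and then 18.5, 16.9 and 21.6 (0.66, adjusted p = 0.095). The 6 H4 genes summed had a log2 fold change of −0.44 (SE 0.13, adjusted p = 0.0438), under the fold threshold. The rest of the tested HIST genes had log2 fold changes from −0.90 (HIST2H2AA4) to 0.68 (HIST1H2AG).

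Of the members, 24 were tested in both cell lines and 16 of them had the same sign in both, with no control sample shared. HIST1H2BE, HIST1H3E, HIST1H4H and HIST2H4B had enough counts only in A549. HIST1H2AC, HIST1H2BF, HIST1H2BG, HIST1H3G, HIST1H4E, HIST3H2BB and HIST4H4 were tested in neither response. None of those 7 had more than 92 counts over the 12 samples, and HIST1H4E alone of them entered the test of the difference in response.

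Summed over each class in A549, the variant genes fell and the HIST genes rose slightly. The summed CPM of the 7 variant genes was 2678, 2746 and 3204 with DMSO and 1752, 1802 and 1794 with RG7112, a ratio of 0.62 (0.594 with library size only). That of the 28 HIST genes was 270, 281 and 313 and then 338, 317 and 336, a ratio of 1.15 (1.1 with library size only). In H1792 the HIST sum went from 426, 433 and 443 to 316, 285 and 281 (ratio 0.678, or 0.852 with library size only), and the variant sum had a ratio of 0.898 that turned to 1.13 with library size only. HIST2H2AA3 and HIST2H2AA4 made up much of the H1792 change, since without them the HIST ratio there was 0.804, or 1.01 with library size only.

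A measure that needs no scaling between samples is the share of HIST counts among all counts of the 35 members. In A549 it was 9.16, 9.28 and 8.9% with DMSO and 16.2, 14.9 and 15.8% with RG7112. In H1792 it was 11.9, 12.2 and 11.9% with DMSO and 9.35, 9.33 and 9.24% with RG7112. The groups did not overlap in either line and went in opposite directions. In H1792 the mean summed CPM of HIST2H2AA3 and HIST2H2AA4 went from 222 to 124, and that of the other 26 HIST genes from 212 to 170. The fall of the share there thus rests largely on that pair. The log2 fold change of HIST2H2AA3 in H1792 was −0.34 with the GC correction and 0.04 with the GC and length correction. The share was not computed with these corrections. Shares of counts depend on transcript length and on how far each mRNA passed the poly-A selection, so they are not shares of molecules, and they carry no test here.

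**Figure D3:**
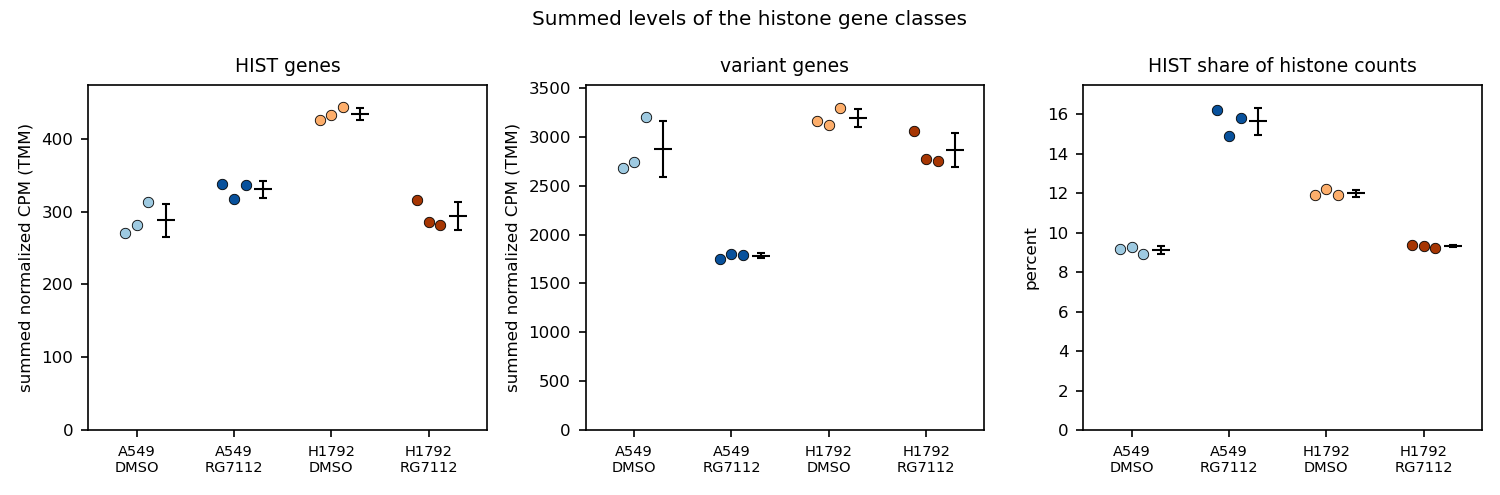
Summed normalized CPM (TMM) of the 28 HIST genes (left) and the 7 variant genes (middle), and HIST counts as a percentage of all counts of the 35 histone genes (right), per sample with mean and SD of 3. With RG7112 the share of HIST counts lies at 14.9 to 16.2% in A549, above 8.9 to 9.28% with DMSO, and at 9.24 to 9.35% in H1792, below 11.9 to 12.2%. The fall of the variant sum in H1792 turns to a ratio of 1.13 with library size only. HIST2H2AA3 and HIST2H2AA4 make up much of the fall of the HIST sum in H1792.

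Whether the response differed between the cell lines was tested as an interaction over all 12 samples, at an adjusted p under 0.05. Of 22 HIST genes tested, 2 were higher in A549 relative to H1792 and 1 was lower, and of 7 variant genes 2 were lower, where 10.4% of all 11666 genes tested were higher and 11.4% lower. The variant genes were H2AFZ (difference of log2 fold changes −1.99, SE 0.17, adjusted p = 3.77e-05) and H2AFX (−1.96, SE 0.21, adjusted p = 0.000181). HIST1H2BL was the HIST gene with the lower response in A549 (−2.88, SE 0.55, adjusted p = 0.00565). These 3 differences passed without any 1 of the 12 samples.

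HIST2H2AA3 had the higher response in A549 (1.48, SE 0.29, adjusted p = 0.00617), and with HIST2H2AA4 added it was 1.20 (SE 0.20, adjusted p = 0.00326). With the GC correction the difference of HIST2H2AA3 alone was 0.84 (adjusted p = 0.0559). HIST1H4E, an H4 gene of low count, was at 1.56, 1.36 and 1.24 CPM with DMSO and 1.7, 3.8 and 2.71 with RG7112 in A549, and at 2.46, 3.22 and 3.48 and then 1.03, 1.6 and 0.697 in H1792. The samples moved up in one line and down in the other, by a difference of 2.34 (SE 0.68, adjusted p = 0.0339). It no longer passed without 9 of the 12 samples, left out 1 at a time (adjusted p up to 0.0903), or without both A549 samples of replicate 3 (adjusted p = 0.0836). The 9 were all but A549 RG7112 replicate 1, H1792 RG7112 replicate 2 and H1792 DMSO replicate 1. The 6 H4 genes summed gave a difference of 0.45 (SE 0.20, adjusted p = 0.138). HIST1H2BC did not pass (1.37, adjusted p = 0.0585), but passed without both A549 samples of replicate 3 (1.28, adjusted p = 0.0286), with the GC correction (1.62, adjusted p = 0.0277) and when summed with the 3 genes of the same protein (1.51, adjusted p = 0.01). H2AFY (−0.35, adjusted p = 0.0538) also passed without those samples (−0.29, adjusted p = 0.0479).

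For H2AFJ, which fell in A549 and passed without the fold threshold in H1792, the difference in response was −0.11 (SE 0.25, adjusted p = 0.794). For H2AFV it was −0.64 (SE 0.39, adjusted p = 0.265), and −0.07 with the GC correction. The median difference was −0.41 over the 7 variant genes, all negative, and 0.13 over the 22 HIST genes (0.15 without HIST1H3E, which had no count in H1792 with DMSO), against 0.02 over all genes.

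Without RG7112, the variant genes differed between the lines by log2 values of −0.45 to 0.47, under the fold threshold. Some HIST genes differed by more, as did many of all genes tested. These comparisons use the same DMSO samples as the responses. No variant gene passed the edgeR test between A549 and H1792 with DMSO (0 by DESeq2 and limma-trend, and 3 lower at an unadjusted p under 0.05), and 6 of 20 HIST genes did, 2 higher and 4 lower in A549, where 20.6% of all 10330 genes tested were higher and 14.8% lower. The median log2 difference was 0.34 over the HIST genes, with HIST1H3E fitted or at its bound given below. It was −0.17 over the variant genes, against 0.08 over all genes. Without the fold threshold H2AFZ was lower in A549 by edgeR (130 to 147 CPM against 177 to 212, −0.45, adjusted p = 0.0161), as were 2399 of all 10330 genes. With the GC correction H2AFZ (−0.72), H3F3A (−0.60), H2AFY (−0.46) and H2AFX (−0.41) were lower at adjusted p of 0.00341 to 0.0115. The median of all genes was then −0.18. H2AFJ, H2AFV and H3F3B did not pass with that correction.

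HIST2H2AA3 was lower in A549 than in H1792 (log2 difference −1.81, SE 0.21, adjusted p = 0.000645), and the sum with HIST2H2AA4 was 64.5 to 88.5 CPM against 215 to 228. HIST2H2BF, an H2B gene of the same cluster on chromosome 1, was at 0.623, 3.4 and 1.99 CPM in A549 and 14.4, 16.8 and 13.1 in H1792 (−2.74, SE 0.52, adjusted p = 0.00491). HIST1H2BC was at 5.92, 5.11 and 2.48 CPM against 16.5, 13.4 and 13.9 (−1.64, SE 0.38, adjusted p = 0.0114), and the sum with the 3 genes of the same protein had −1.28 (adjusted p = 0.00751). HIST3H2A, an H2A gene, was at 10.9, 11.7 and 16.4 CPM against 27.8, 33.2 and 32.6 (−1.21, SE 0.22, adjusted p = 0.00431). In each of these genes all H1792 samples lay above all A549 samples.

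HIST1H3E had no count in the 3 H1792 samples with DMSO. Set against 3 counts per library there (a mean of 1.02 CPM), its 5.9 CPM in A549 was at least 5.8-fold higher (adjusted p = 0.00137). The sum with HIST1H3G and HIST1H3H was also higher in A549 (log2 difference 1.66, adjusted p = 0.00215). With RG7112, HIST1H3E was at 0.258, 0 and 0.929 CPM in H1792. HIST2H4B was at 4.67, 5.79 and 11.7 CPM in A549 and at 0, 0 and 2.61 in H1792 (log2 difference 3.37, SE 1.15, adjusted p = 0.0464). That call was lost without any 1 of the 6 samples except H1792 replicate 3 (adjusted p up to 0.121), and with the GC correction (adjusted p = 0.0618). Its counts may not be separable from those of HIST2H4A. The sum of both genes was 58.9, 60.9 and 74.3 CPM in A549 against 37.6, 45.4 and 47.4 in H1792.

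**Figure D4:**
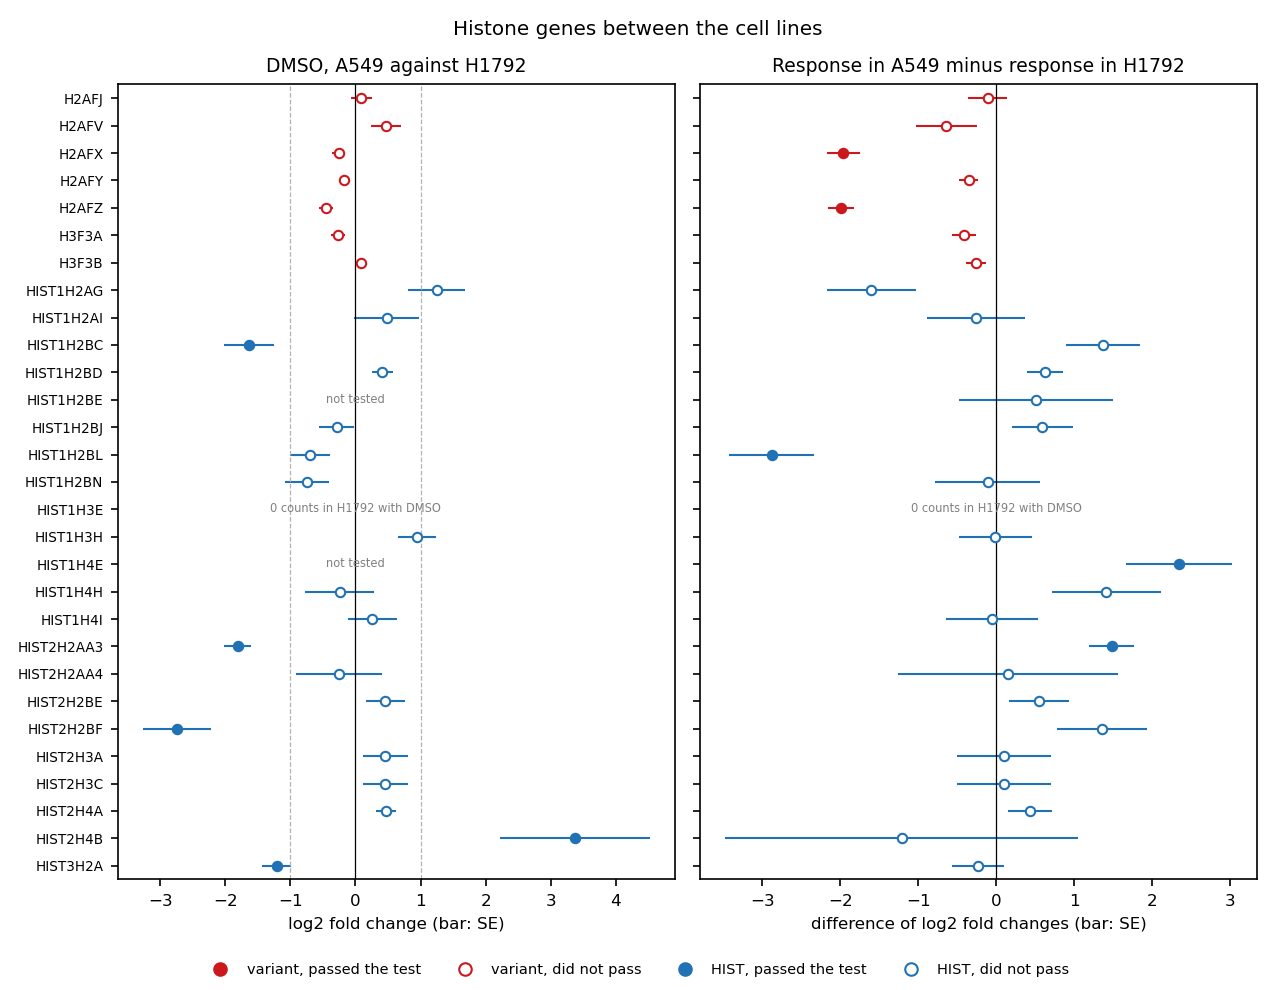
Log2 difference between A549 and H1792 with DMSO (left) and the response in A549 minus the response in H1792 (right) for every histone gene tested, with bars of 1 SE. Colours and filled symbols are as in the plot of responses, and HIST1H3E, with 0 counts in H1792 with DMSO, is not drawn. H2AFX and H2AFZ lie at −0.26 and −0.45 on the left and at −1.96 and −1.99 on the right.

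Histone mRNAs need a dedicated machinery: NPAT switches on the HIST genes, CDK2 activates NPAT, SLBP and the U7 particle define the 3′ end, and CPSF proteins cleave it. Of a list of 24 such genes, 20 were tested in A549. There 3 were lower (SNRPB, CDK2 and SLBP) and none was higher in the edgeR test (0 also by DESeq2, limma-trend and an unadjusted p under 0.05), with a median log2 fold change of −0.27, beside 3.01% of all genes lower and 3.18% higher. SLBP was at 63.5, 56.5 and 74 CPM with DMSO and 30.5, 38.5 and 19.5 with RG7112, a log2 fold change of −1.14 (SE 0.27, adjusted p = 0.0489). Without any 1 of the 6 samples the adjusted p of SLBP was 0.0611 to 0.135, and without both samples of replicate 3 it was 0.0588. CDK2 had a log2 fold change of −1.51 (SE 0.28, adjusted p = 0.0193), which did not pass without RG7112 replicate 2, DMSO replicate 1 or DMSO replicate 2 (adjusted p 0.07 to 0.0778). SNRPB, a component of Sm rings including that of U7, had −1.28 (SE 0.15, adjusted p = 0.00319), and its call held without any 1 sample.

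NPAT was at 6.54, 5.45 and 5.96 CPM with DMSO and 5.41, 7.13 and 3.25 with RG7112 in A549, where the groups overlapped (log2 fold change −0.20, SE 0.40, adjusted p = 0.815). In H1792, 20 genes of the list were tested, 3 were higher and 1 was lower, with a median of 0.00. Over all genes 10.3% were higher and 4.34% lower, so these counts lie near the background. The higher ones were CDK2 (1.51, adjusted p = 0.00851), YY1, a transcription factor (1.23, adjusted p = 0.0466), and CPSF2 (1.16, adjusted p = 0.0183), and the lower one was SYMPK, the scaffold of the cleavage complex (−1.56, adjusted p = 0.0187). Of these, CDK2 passed without any 1 sample. The others did not (adjusted p up to 0.152 for YY1, 0.0662 for CPSF2 and 0.0682 for SYMPK), and with the GC correction CPSF2 had 0.49 (adjusted p = 0.217) and YY1 an adjusted p of 0.0956. SLBP in H1792 was at 73.8, 75.5 and 61.8 CPM and then 78, 77 and 68.5 (log2 fold change 0.16, adjusted p = 0.321), and NPAT had 0.53 (adjusted p = 0.257).

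Histone chaperones carry histones to and from DNA. Of 31 genes on a list of chaperones and their partners, 25 were tested in A549, where 6 were lower and none was higher in the edgeR test (0 also by DESeq2, limma-trend and an unadjusted p under 0.05), with a median of −0.57, against the same 3.01% lower and 3.18% higher over all genes. NASP, a chaperone of H3 and H4, went from 148, 155 and 188 CPM to 55.7, 51.8 and 51.2 (log2 fold change −1.63, SE 0.15, adjusted p = 0.00179). ANP32E, which removes H2A.Z, went from 37.7, 31.3 and 32.3 to 12.1, 8.08 and 6.23 CPM (−1.92, SE 0.30, adjusted p = 0.0107). CENPA, the centromeric H3 variant, whose symbol is outside the rule for members, went from 29.3, 31.2 and 32.1 to 3.09, 0.951 and 2.98 CPM (−3.60, SE 0.38, adjusted p = 0.0024). HJURP, the chaperone of CENPA, had −2.78 (adjusted p = 0.0182), DEK −1.76 (adjusted p = 0.00613) and NPM1 −1.02 (adjusted p = 0.00495). Without 1 sample the adjusted p rose to at most 0.0751 for HJURP and 0.0522 for ANP32E, and NPM1 came under the fold threshold without either sample of replicate 3 (−0.94 and −0.96), without both (−0.88) and with the GC correction (−0.86). Without both samples of replicate 3, CHAF1A (−2.70, adjusted p = 0.0315) and MCM2 (−2.94, adjusted p = 0.0107) passed as well.

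In H1792, 27 of the chaperone list were tested, 3 were higher and 2 were lower, with a median of 0.02, beside 10.3% and 4.34% of all genes. The share of higher genes is near that background. MCM2, a helicase subunit that also holds histones, was at 19, 0.23 and 14.4 CPM with DMSO and 83.5, 130 and 109 with RG7112 (3.42, SE 0.87, adjusted p = 0.0251). SRCAP, which deposits H2A.Z, had 2.10 (adjusted p = 0.00987) and RBBP4 1.03 (adjusted p = 0.00567). TONSL had −1.71 (adjusted p = 0.0266) and EP400 −1.45 (adjusted p = 0.0422). Only SRCAP passed both thresholds without any 1 sample. With the GC correction RBBP4 (0.46), TONSL (adjusted p = 0.0986) and EP400 (adjusted p = 0.063) no longer passed. NASP (389, 433 and 436 CPM, then 306, 287 and 291), ANP32E (63.3, 70.7 and 77.9, then 71.9, 72.2 and 76.2) and CENPA (46.8, 47.4 and 41.3, then 40.7, 36.9 and 42) did not pass the test with the fold threshold in H1792. As an interaction, 1 of 28 tested genes of the chaperone list had the higher and 10 the lower response in A549, against 10.4% and 11.4% of all genes, and 0 and 6 of 21 in the mRNA list (higher in 1 gene at an unadjusted p under 0.05 and in 1 by DESeq2).

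**Figure D5:**
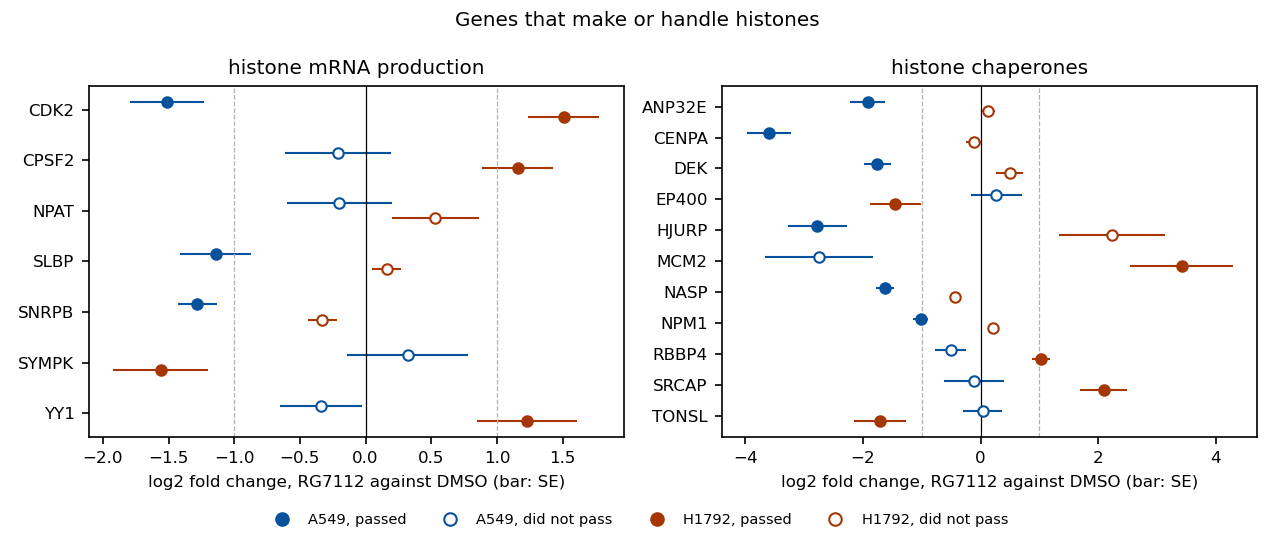
Log2 fold change of RG7112 against DMSO in A549 (blue) and H1792 (brown) with bars of 1 SE, for the genes of the histone mRNA list (left) and the chaperone list (right) that passed the test in either line, plus SLBP and NPAT. Filled symbols passed the test, and dashed lines mark a log2 fold change of 1. CDK2 lies at −1.51 in A549 and 1.51 in H1792.

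The promoters of the lowered genes are shown because histone promoters are built from a few short elements. RefSeq (GRCh38.p14) gave the 250 bases before and 50 after the start for 26 HIST and 7 variant members, all but HIST2H2AA3 and HIST2H2AA4. On either strand, CCAAT was in 21 of 26 HIST and 6 of 7 variant promoters, against 35.7% of all 27305 promoters. TATAAA was in 15 of 26 and 3 of 7, against 12%. TTTGAA, the letters of the CHR element of cell cycle genes, was in 7 of 26 and 2 of 7, against 15.4%. TTCCCGC, the letters of an E2F element, was in 4 of 26 HIST promoters (HIST1H4E, HIST1H4I, HIST2H4A and HIST2H4B) and in none of the 7 variant promoters, against 6.56%. These are matches of letters and not sites.

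The 250 bases before the start are given for the 3 genes whose fall in A549 passed without any 1 sample, with matches to CCAAT, to TATAAA or to TTTGAA on either strand in capitals. H2AFX (H2AX in RefSeq, chr11:119095466-119095715, minus strand) holds 4 CCAAT, 1 TATAAA and 1 TTTGAA in this stretch. H2AFZ (H2AZ1, chr4:99950276-99950525, minus strand) holds 3 CCAAT and 1 TATAAA. HIST1H2BL (H2BC13, chr6:27807930-27808179, minus strand) holds 4 CCAAT and 2 TATAAA.
H2AFX: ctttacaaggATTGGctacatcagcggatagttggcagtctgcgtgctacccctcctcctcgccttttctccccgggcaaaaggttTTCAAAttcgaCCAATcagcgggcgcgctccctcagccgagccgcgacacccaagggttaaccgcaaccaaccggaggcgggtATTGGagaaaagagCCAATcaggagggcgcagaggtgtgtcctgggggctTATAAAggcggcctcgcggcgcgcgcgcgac
H2AFZ: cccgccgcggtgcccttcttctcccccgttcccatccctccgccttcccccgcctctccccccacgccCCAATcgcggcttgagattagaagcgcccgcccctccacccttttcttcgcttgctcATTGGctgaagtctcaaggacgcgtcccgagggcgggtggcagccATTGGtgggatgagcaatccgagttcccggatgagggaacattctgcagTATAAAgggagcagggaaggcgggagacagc
HIST1H2BL: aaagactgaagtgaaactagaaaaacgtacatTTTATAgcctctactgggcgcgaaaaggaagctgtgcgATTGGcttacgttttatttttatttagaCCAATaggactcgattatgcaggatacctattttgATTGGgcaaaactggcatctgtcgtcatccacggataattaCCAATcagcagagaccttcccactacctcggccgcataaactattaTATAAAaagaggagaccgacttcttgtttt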

How the data were processed

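The 12 samples were A549 and H1792 cells with DMSO or RG7112, 3 in each of 4 groups. Per the paper's methods and the labels, poly-A RNA was sequenced from both ends with a strand-keeping kit, and kallisto 0.45.0 estimated transcript abundances on the Ensembl GRCh38 transcriptome, which were added up to genes. The authors deposited these estimated counts (expected counts) as whole numbers, without normalization. The labels and the paper's methods give 1 μM, the column names 0.1 μM, and 1 sentence of the paper gives the p53 status of the lines the other way round.

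Of the 20595 rows, 18011 matched GENCODE v29, which supplied symbols, positions and transcripts. Counts were filtered with filterByExpr (minimum count 10, minimum total count 15), normalized by TMM and tested with edgeR 4.0.16 (quasi-likelihood, robust) in R 4.3.3, for each cell line, for DMSO between lines, and as an interaction over all 12 samples. P-values were adjusted by Benjamini-Hochberg over all genes tested. A gene was called where the adjusted p was under 0.05 and the log2 fold change over 1 in size, and for the interaction by the p alone. CPM values are scaled by TMM over all 12 samples, whereas fold changes come from each comparison's own fit, so that they can differ slightly. SEs were taken from the log2 fold change and its F statistic. Floors cover counting error only, whereas SEs include the spread between samples. Duplicate reads cannot be recognized. The procedure was tested on simulated data.

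Every member that passed the filter is named. Values per sample are given for members called in a response or the interaction and the 3 of each class with the highest mean CPM, and for others only where stated. From the lists (24 genes of histone mRNA production, 31 chaperones), the genes called in a response plus SLBP and NPAT are named. HIST2H2BE, H2AFV in H1792, CHAF1A, MCM2 in A549 and genes given per sample outside that rule were chosen after their values were seen. The members and lists were chosen with earlier results of these data known.

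The alternatives were scaling by library size only or by RLE, fitting with DESeq2 1.42.0 or limma-trend (limma 3.58.1, prior count 2), dropping the filter or asking for 10 counts in every sample, blocking on the replicate number, corrections for GC content and for GC content and length (loess, span 0.5), the block with the GC correction, other thresholds, all 12 samples in one fit, members of identical protein or counts summed, and each sample left out in turn. Leaving out both A549 samples of replicate 3 was added after seeing the data.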

Additional observations from a re-analysis of the deposited data

Results flagged for a closer look

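The response to RG7112 differed between the cell lines in 5 of 29 histone genes tested, by the edgeR interaction test over all 12 samples. Of these, 2 had the higher and 3 the lower response in A549, where 10.4% of all 11666 genes were higher and 11.4% lower. Neither count exceeded that share. The difference of log2 fold changes, A549 minus H1792, was −1.96 for H2AFX and −1.99 for H2AFZ, where A549 fell and H1792 did not pass. It was −2.88 for HIST1H2BL, whose treated A549 samples held at most 4 counts each. It was 1.48 for HIST2H2AA3, where it became 0.84 (adjusted p = 0.0559) with the GC correction. It was 2.34 for HIST1H4E, which had 92 counts over all samples and lost the call without 9 of the 12 samples taken 1 at a time. The causes of these differences were not tested, and with 1 cell line per p53 status they cannot be told apart from other differences between A549 and H1792.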

How the results depend on the processing

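In A549 the count of HIST genes called was 2, and it was 1 at an adjusted p under 0.01, with library size only and with no filter on low counts, and 1 to 2 with single samples left out. It was 3, of them 2 higher, with DESeq2, the GC correction, the GC and length correction, the replicate block with GC correction, all 12 samples in one fit and without both samples of replicate 3, and with at least 10 counts in every sample both calls were higher. The count of variant genes was 4, and it was 2 at an adjusted p under 0.01, 2 without both samples of replicate 3 and 2 to 3 with single samples left out. In H1792 the count of HIST genes was 0, and it was 1 with no fold change threshold, 1 with no filter and 1 with the GC and length correction. The count of variant genes there was 0, and it was 1 with no fold threshold and 2 with the GC correction, the GC and length correction and the replicate block with GC correction. Both H1792 counts were 0 to 0 with samples left out. Between the lines with DMSO the count of 0 variant genes became 1 with no fold threshold, and the HIST count was 5 to 6 with samples left out. In the interaction, DESeq2 called 5 HIST genes in place of 3, library size only and at least 10 counts in every sample called 5 variant genes in place of 2, and leaving out samples gave 2 to 4 HIST and 2 to 3 variant genes.

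With library size only, the ratio of summed CPM in H1792 moved from 0.678 to 0.852 for the HIST genes and from 0.898 to 1.13 for the variant genes. It moved the median of all genes from 0.08 to 0.29 between the lines and from 0.02 to −0.37 in the interaction, and the share of calls that were higher from 58.1 to 68.8% and from 47.7 to 23%. With the GC correction the share of higher calls was 53.4% in H1792 (main 70.3%) and 45.4% between the lines, with medians of −0.10 and −0.18. NPAT, which passed no test, changed sign in A549 with the GC correction (0.08), the GC and length correction (0.05), the replicate block with GC correction (0.08), without RG7112 replicate 3 (0.06, from −0.44 to 0.06 over the samples left out) and without both samples of replicate 3 (0.05), and in H1792 with the first 3 of these (−0.19, −0.28 and −0.21). HIST2H2AA3 in H1792 reversed to 0.04 with the GC and length correction. The causes were not tested.

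Deviations of same-numbered samples correlated at 0.149, 0.066 and 0.295 in A549 and at −0.039, −0.019 and 0.001 in H1792. In A549 the samples of replicate 3 deviated together, since their correlations with the other replicates were −0.235 to −0.140. Replicates 1 and 2 of A549 correlated across numbers at 0.144 and 0.113, so the number did not pair those. In H1792 all pairs, of the same or another number, lay at −0.039 to 0.040. With the replicate block, counts of 2 HIST and 4 variant genes were called in A549, 0 and 0 in H1792, 6 and 0 between the lines and 3 and 2 in the interaction. The genes behind equal counts differed: under the block HIST1H3E lost its A549 call (adjusted p = 0.0812) and HIST2H2BE gained one (0.0398), and in the interaction HIST1H4E lost its call (0.0812) and HIST1H2BC gained one (0.0382). Of 865 values of single genes under the alternatives, 694 kept direction and call, 150 lost the call, 12 gained one and 9 changed sign. These values cover 44 pairs of gene and comparison only. The pairs are members with an adjusted p under 0.05 in the main fit, list genes called in a response, and SLBP and NPAT. Calls gained by other genes, such as HIST2H2BE in A549, are therefore not among the 12. Depth limits the HIST genes, whose median total was 212.5 counts over 12 samples against 18100 for the variant genes.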

Other observations

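The HIST members differ in how far their longest annotated transcript runs past the hairpin, from 35 to 1917 bases where that transcript holds the hairpin. In HIST1H2BC, HIST1H2BD and HIST1H2BN the hairpin is in a shorter transcript and the longest lacks it. The longest annotated transcript ends within 40 bases of the hairpin in HIST1H2AI (39 bases), HIST1H2BL (40), HIST2H2AA3 (35) and HIST2H2AA4 (35), with log2 fold changes in A549 of 0.01, −3.58, 0.65 and −0.83. Of these, HIST1H2BL passed the test and the others did not. HIST1H3E, which rose, has a transcript that runs 1862 bases past the hairpin. Whether these annotated lengths bear on the responses was not tested.

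Of the 2753 protein-coding genes of GENCODE v29 with 1 annotated transcript, 989 (35.9%) were among the rows analysed here, against 16978 of 17169 (98.9%) with more than 1. All 45 histone genes not analysed here have 1 transcript. The HIST values here therefore cover 28 of the 71 HIST genes.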
